A study of Homo sapiens with 46 samples.

Results

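The ectoderm transcript table holds 54325 assembled transcripts, and 843 of them (1.55%) carry no Ensembl gene. Members were taken by that empty gene entry alone, so the rule itself used no level. It was set with earlier results of these data known. The other transcripts are 30571 new isoforms of an Ensembl gene and 22911 matches to an Ensembl transcript. The 843 transcripts fall into 795 loci of the assembly, of which 756 hold a single transcript. A further 23 loci, with 39 members, also hold transcripts of an Ensembl gene, and 21 loci hold several members, up to 14 in locus ECT.24997. The tables give no coordinates or sequences for assembled transcripts, so positions are given only for Ensembl genes beside them in the assembly's numbering.

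RNA was measured in 12 libraries of ectoderm cells, 3 each from the cytoplasm, nucleus, nucleoplasm and chromatin fractions. The cells came from H1, an established human pluripotent stem cell line, kept for 5 days in DMEM/F12 with KOSR serum replacement, A83-01, PNU-74654 and Dorsomorphin. Cytoplasm is the supernatant of a mild NP-40 lysis, nucleus is RNA from a portion of the pellet, and the remaining pellet was split by a urea and NP-40 lysis into soluble nucleoplasm and a chromatin pellet; the buffers of every fraction contained alpha-amanitin, an inhibitor of RNA polymerase II. The series text names actinomycin D, but no label of these libraries does.

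Transcripts that an assembler places outside annotated genes include intergenic long noncoding RNAs, RNAs that start in transposable elements, fragments of known transcripts and products of repeated genes. Long noncoding RNAs as a class are often retained in the nucleus and on chromatin. Most nuclear-encoded ribosomal RNA is transcribed by RNA polymerase I from repeated gene arrays. Some copies of these arrays lie on chromosome 21 and on unplaced sequences of the human genome. Ribosomal RNA is usually depleted or avoided when RNA libraries are made.

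The libraries held 7738946 to 21298678 counts, and replicates differed by more than counting error. Of 14 fixed neural ectoderm genes, 12 had a transcript, with sums of 1910 to 2660 CPM (counts scaled to a library total of 1000000) in the 12 libraries. SOX1 and HES5 had none, and ZIC1 stayed between 0.141 and 0.889 CPM. Of 8 endoderm genes 0 had a transcript, 3 of 8 mesoderm genes summed to 35.3 to 121 CPM, and 6 of 8 pluripotency genes summed to 1040 to 2360 CPM. LIN28A, an RNA-binding protein gene, made up most of the last sum. DPPA4 stood at 105 to 181 CPM, L1TD1 at 3.10 to 47.7 CPM and ESRG at 7.62 to 14.9 CPM. POU5F1 stayed between 1.55 and 8.29 CPM, TDGF1 was at most 0.148 CPM, and NANOG and LINC-ROR had no transcript. The fraction control genes go against the nucleus label: 6 nuclear RNAs, among them MALAT1 and NEAT1, summed to 170 to 594 CPM in the nucleus libraries and to 1540 to 2650 CPM in cytoplasm. These RNAs summed to 2400 to 2700 CPM in nucleoplasm and to 1410 to 1690 CPM in chromatin, which overlapped cytoplasm. MALAT1 and NEAT1 had lower means in chromatin than in cytoplasm, and KCNQ1OT1, SNHG14, MEG3 and TUG1 higher ones. A list of 9 cytoplasmic RNAs summed to 45600 to 49500 CPM in cytoplasm and 76400 to 97300 CPM in nucleus. They summed to 54100 to 60000 CPM in nucleoplasm and 19700 to 27200 CPM in chromatin. Mitochondrial MT-CO1, MT-CYB and MT-ND1 had means of 4720, 481 and 286 CPM in cytoplasm and 35500, 3140 and 3100 CPM in nucleus. The other genes differed less between these fractions, from EEF1A1 at 26500 and 25800 CPM to RPLP0 at 4230 and 5370 CPM. Directions between fractions therefore hold for the libraries as labelled. In bulk samples, fewer cells of a type and less RNA per cell cannot be told apart.

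Most members were rare. The median of their mean level over the 12 libraries was 0.351 CPM. There were 9 members at 100 CPM or more, 32 from 10 to under 100 CPM, 211 from 1 to under 10 CPM, 590 above 0 and under 1 CPM, and 1, ECT.24997.10, at 0 in every library. A count was present in all 12 libraries for 272 members (32.3%). A count of 0 allows up to 0.14 to 0.39 CPM, taken as 3 counts of a library's total.

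The members together took a very uneven share of the counts. In cytoplasm the replicates held 0.277%, 8.67% and 0.547% of library counts, and in nucleus 0.560%, 0.453% and 0.292%. In nucleoplasm they held 6.22%, 3.16% and 4.31%, and in chromatin 1.06%, 7.34% and 1.33%. Cytoplasm replicate 2 and chromatin replicate 2 thus stood far above the other replicates of their fractions, while all nucleoplasm replicates were high and all nucleus replicates low. The 95% Wilson half-width of each share was at most 0.014 percentage points, which covers counting error only.

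As means ± SD of 3 libraries, nucleoplasm had 4.56% ± 1.55 and chromatin 3.24% ± 3.55, where cytoplasm had 3.16% ± 4.77 and nucleus 0.435% ± 0.135. Only the nucleus libraries had no overlap with nucleoplasm or with chromatin. Each of these differences had an exact permutation p of 0.1, two-sided, the smallest that 3 against 3 allows, and 0.3 adjusted over the 6 pairs of fractions. The other 4 pairs had exact p-values from 0.6 to 1. Without replicate 2 the means were 0.412% in cytoplasm and 1.2% in chromatin. In the authors' TPM, a length-corrected share, the libraries ranged from 0.259% in cytoplasm replicate 1 to 12.2% in chromatin replicate 2.

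**Figure D1:**
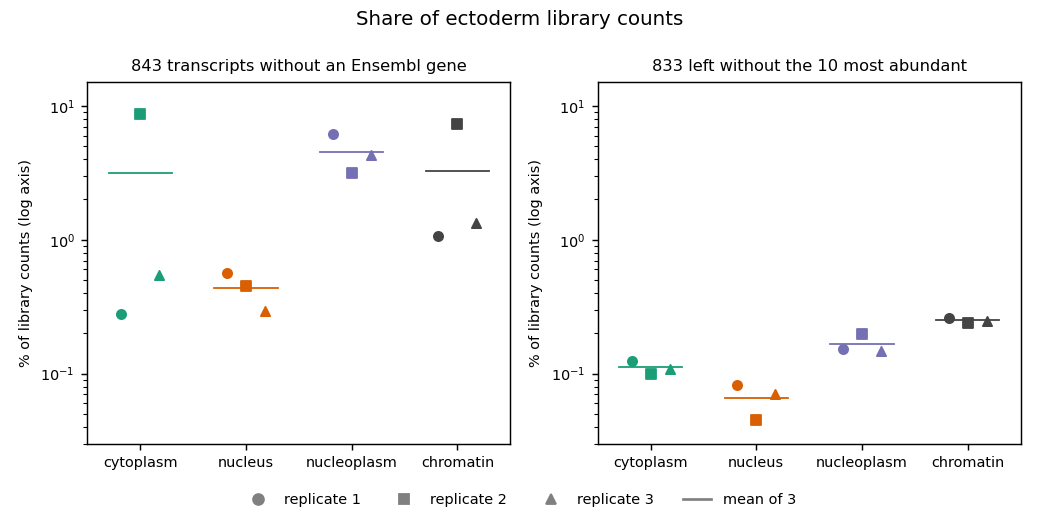
Percent of each library's counts, on a log axis, taken by the 843 transcripts without an Ensembl gene (left) and by the 833 left without the 10 most abundant (right), by fraction; each marker is a library and each line the mean of 3. On the left, cytoplasm replicate 2 (8.67%) and chromatin replicate 2 (7.34%) stand above their fractions, and on the right the 4 fractions do not overlap.

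The spread came from 10 transcripts. The 10 members with the highest mean CPM held 54.9% to 98.9% of the members' counts in a library, with the lowest share in cytoplasm replicate 1 and the highest in cytoplasm replicate 2. The member with the most counts was ECT.25017.1 in cytoplasm replicate 1 and in the nucleus and nucleoplasm libraries. It was ECT.25020.1 in cytoplasm replicates 2 and 3 and in chromatin replicates 1 and 3, and ECT.25021.1 in chromatin replicate 2. Per length, by mean TPM over the 12 libraries, ECT.25020.1 led at 16700, ahead of ECT.25017.1 and ECT.23131.1 at 7040 each and ECT.25024.1 at 5950.

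By their levels, seen in these libraries, 9 of the 10 fell into a set of 6 and a set of 3. The set of 6 holds ECT.25017.1, ECT.25020.1, ECT.25024.1, ECT.23131.1, ECT.25007.1 and ECT.25023.1. ECT.25017.1 stood at 439, 22100 and 828 CPM in the cytoplasm replicates and at 1220, 1010 and 436 CPM in nucleus. It stood at 22600, 15800 and 19600 CPM in nucleoplasm and at 1290, 9210 and 2100 CPM in chromatin. Its nucleoplasm libraries lay above its chromatin libraries, and its cytoplasm libraries overlapped every other fraction.

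ECT.25020.1 stood at 318, 25100 and 1330 CPM in cytoplasm and at 1010, 894 and 399 CPM in nucleus. It stood at 14400, 5340 and 8300 CPM in nucleoplasm and at 1920, 15100 and 2650 CPM in chromatin. Its levels in cytoplasm replicate 2 and chromatin replicate 2 were the highest of the 12, with nucleoplasm replicate 1 close below.

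ECT.25024.1 stood at 278, 18700 and 907 CPM in cytoplasm, 770, 599 and 261 CPM in nucleus, 11400, 4580 and 6520 CPM in nucleoplasm and 1320, 12400 and 1910 CPM in chromatin. ECT.23131.1 stood at 249, 14700 and 891 CPM in cytoplasm, 590, 480 and 194 CPM in nucleus, 8300, 2650 and 4810 CPM in nucleoplasm and 1140, 8190 and 1590 CPM in chromatin. In both, replicate 2 lay far above the other 2 in cytoplasm and in chromatin, as for ECT.25020.1. ECT.25007.1 reached 2950 CPM in cytoplasm replicate 2 against 15.0 and 14.4 CPM in the other 2, and 302 to 2000 CPM in nucleoplasm against 16.6 to 106 CPM in nucleus. ECT.25023.1 reached 2010 CPM in cytoplasm replicate 2 against 1.89 and 79.2 CPM, and 557 to 1470 CPM in nucleoplasm against 23.8 to 137 CPM in nucleus. In these 6 members, no nucleoplasm library overlapped a nucleus library.

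Within a library, ECT.25024.1 and ECT.23131.1 kept close to a fixed ratio to ECT.25020.1. ECT.25024.1 had 0.653 to 0.875 times the counts of ECT.25020.1 in the 12 libraries, and ECT.23131.1 had 0.486 to 0.785 times. ECT.25017.1 varied more, from 0.610 times in chromatin replicate 2 to 2.95 times in nucleoplasm replicate 2. Summed, the 6 members held 85460 CPM in cytoplasm replicate 2 against 1300 and 4054 CPM in the other 2, and 47390 CPM in chromatin replicate 2 against 6105 and 8779 CPM. These were 31.9 times and 6.37 times the mean of the other 2 replicates.

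**Figure D2:**
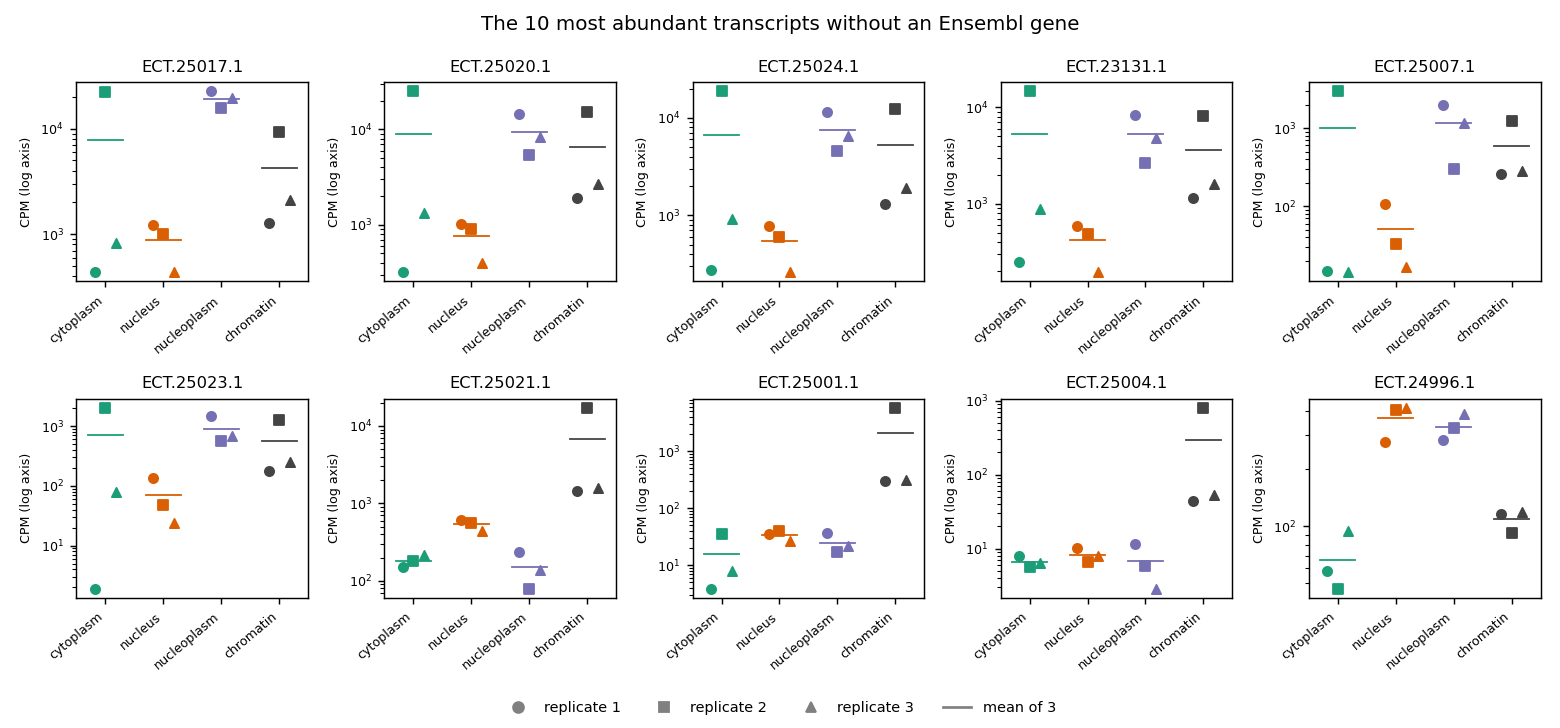
CPM of the 10 most abundant transcripts without an Ensembl gene, on log axes of their own, by fraction; each marker is a library and each line the mean of 3. In the first 6 panels nucleoplasm, cytoplasm replicate 2 and chromatin replicate 2 are high; in the next 3 chromatin replicate 2 is highest; ECT.24996.1 is high in nucleus and nucleoplasm.

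The set of 3, ECT.25021.1, ECT.25001.1 and ECT.25004.1, was high in chromatin. ECT.25021.1 stood at 1430, 17100 and 1580 CPM in chromatin, 153, 179 and 217 CPM in cytoplasm, 614, 558 and 436 CPM in nucleus and 236, 79.2 and 137 CPM in nucleoplasm. Its chromatin libraries lay above the other 9, and chromatin replicate 2 lay far above the other 2. ECT.25001.1 stood at 295, 5700 and 308 CPM in chromatin and at 3.86 to 39.7 CPM in the other libraries, and ECT.25004.1 at 44.3, 796 and 53.4 CPM in chromatin and 2.88 to 11.5 CPM elsewhere. The 3 members summed to 164.8, 219.9 and 231.6 CPM in cytoplasm, a sum made up mostly of ECT.25021.1. ECT.25001.1 by itself was higher in cytoplasm replicate 2, at 35.0 CPM against 3.86 and 8.01 CPM. The summed level of cytoplasm replicate 2 was 1.11 times the mean of the other cytoplasm libraries, where chromatin replicate 2 was 12.7 times the mean of the other chromatin libraries.

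The excess of each outlying library over the mean of the other 2 replicates was divided over these sets. In cytoplasm replicate 2 the set of 6 held 100% of it, rounded. In chromatin replicate 2 the set of 6 held 65.0% and the set of 3 held 35.3%. The 833 members outside the 10 were at 0.852 times the mean of the other replicates in cytoplasm replicate 2 and at 0.944 times in chromatin replicate 2, so they were not raised there. Levels over 3 times the median of the fraction, among members at 1 CPM or more in that fraction, were seen for 7 of 211 members (3.32%) in cytoplasm replicate 2, against 0.475% of all transcripts. In chromatin replicate 2 they were seen for 9 of 308 members (2.92%), against 0.681%. These 9 are the set of 6 and the set of 3, and the 7 are the set of 6 and ECT.25001.1.

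ECT.24996.1 followed neither set. It stood at 58.2, 46.9 and 93.9 CPM in cytoplasm, 277, 407 and 417 CPM in nucleus, 282, 329 and 388 CPM in nucleoplasm and 116, 91.6 and 119 CPM in chromatin. Nucleus and nucleoplasm overlapped each other and lay above the other 2 fractions. It was lower in the libraries labelled cytoplasm than in those labelled nucleus by a log2 change of -2.86 (SE 0.30, adjusted p 0.000196, edgeR), and lower in chromatin than in nucleoplasm by -2.01 (SE 0.29, adjusted p 0.00222). In the assembly's numbering it comes next after MT-CYB, the mitochondrial cytochrome b gene, whose transcript was also highest in nucleus and nucleoplasm. ECT.24996.1 had 0.104 to 0.163 times the counts of that transcript in the 12 libraries.

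Beside other leading members, the numbering holds genes of ribosomal RNA. Between neighbouring loci whose Ensembl genes share a chromosome or scaffold, the numbers followed coordinate order in 81.3% of 22219 pairs. That share concerns order only and not distance, so a neighbour in number can lie far away in the genome. Being numbered between Ensembl genes therefore does not give a member's genomic position. ECT.25017.1 is numbered between a misc_RNA gene and a 5_8S_rRNA gene, both on scaffold KI270733.1, and ECT.25020.1, ECT.25021.1, ECT.25023.1 and ECT.25024.1 come after that 5_8S_rRNA gene. ECT.25001.1 and ECT.24996.1 both lie between MT-CYB and RNA5-8SN5 of scaffold GL000220.1 in number, ECT.25004.1 comes after RNA5-8SN5, and ECT.25007.1 follows another 5_8S_rRNA gene of that scaffold. ECT.23131.1 is numbered between 2 lincRNA genes of chromosome 21, ENSG00000278996 and ENSG00000280614. Whether these members are parts of ribosomal RNA was not tested, since their sequences were not used here.

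Among 9 transcripts of Ensembl genes looked at beside the leading members, ECT.25006.1 had a pattern over libraries like that of the set of 6. It is listed as 5_8S_rRNA (GL000220.1, 155997 to 156149, plus strand, GRCh38). The 5.8S RNA is a part of the large ribosomal subunit. This transcript stood at 177, 15500 and 685 CPM in cytoplasm, 601, 514 and 221 CPM in nucleus, 8720, 4070 and 4880 CPM in nucleoplasm and 858, 7730 and 1240 CPM in chromatin. ECT.25020.1 had 1.31 to 2.24 times its counts in the 12 libraries. The transcripts ECT.25003.1 (RNA5-8SN5) and ECT.25019.1 (5_8S_rRNA of KI270733.1) were at 0 in 11 of the 12 libraries. These Ensembl genes were picked out after their values were seen.

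How counts are divided among copies of such genes is uncertain. In GENCODE release 29 the 4 copies of the 5.8S gene on chromosome 21 have 153 bases each and do not differ from each other at any base. Their sequence is shown because reads from it cannot be told apart by copy, and it is that of chr21:8439823-8439975 (GRCh38, plus strand), the copy that has a transcript in the table, at 217 CPM in chromatin replicate 2 and 0.721 to 10.7 CPM in the other 11 libraries:
5.8S rRNA: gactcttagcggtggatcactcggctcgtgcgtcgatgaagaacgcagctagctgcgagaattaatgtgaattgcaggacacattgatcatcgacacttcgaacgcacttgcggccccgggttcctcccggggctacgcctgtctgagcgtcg
Copies on the scaffolds were not compared here. On chromosome 21 the lincRNA genes ENSG00000280800 (8210384 to 8211306, minus strand) and ENSG00000280614 (8393419 to 8394341, minus strand) likewise have 923 bases each with 0 differences. Their transcripts were highest in chromatin replicate 2, as the set of 3 was, and ECT.25021.1 had 0.869 to 3.22 times the counts of the former.

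The combined assembly, a second table with the same libraries, has its own transcripts, of which 1374 of 90397 (1.52%) carry no Ensembl gene. There the shares in cytoplasm replicate 2 and chromatin replicate 2 were 7.28% and 6.67%, and the 10 leading transcripts held 98.1% and 93.2% of these transcripts' counts. The division within the leading transcripts differed: hEDT_00000092 stood at 7490 CPM in cytoplasm replicate 2 and at 0.0703 CPM in chromatin replicate 2. The other 3 of the first 4, hEDT_00000091, hEDT_00000107 and hEDT_00000095, stood at 6560 to 14300 CPM in chromatin replicate 2.

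Without the 10 leading members the fractions separated. The 833 others held 0.125%, 0.0996% and 0.109% of counts in cytoplasm, 0.0821%, 0.0454% and 0.0700% in nucleus, 0.153%, 0.198% and 0.148% in nucleoplasm and 0.262%, 0.241% and 0.248% in chromatin. On library totals, chromatin was highest and nucleus lowest, and no 2 fractions overlapped. As means ± SD they stood at 2500 ± 107 CPM in chromatin, 1660 ± 277 CPM in nucleoplasm, 1110 ± 129 CPM in cytoplasm and 659 ± 187 CPM in nucleus (n = 3 libraries each). Each of the 6 pairs had an exact permutation p of 0.1, two-sided, the smallest possible, and 0.1 after adjustment. TMM, edgeR's composition scaling, had factors of 1.255 to 1.368 in chromatin and 1.001 to 1.048 in nucleoplasm. Using it would bring these 2 fractions closer, and whether they would then overlap was not computed.

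Of the 843 members, 373 (44.2%) passed the filter on low counts, where 76.8% of all transcripts did. The 470 that did not pass had a highest mean of 0.608 CPM. They summed to 96.5 to 114 CPM in the chromatin libraries, 85.2 to 104 CPM in nucleoplasm, 64.9 to 79.2 CPM in cytoplasm and 17.7 to 48.6 CPM in nucleus, so nucleus was again lowest. The 373 had a median of 1.54 CPM. A transcript can pass through the fraction where it is high, so the counts below describe the 373 and not the 843.

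The counts and percents of this paragraph use CPM on library totals, without TMM (edgeR's composition scaling), as do all statements of overlap. TMM factors were 1.255 to 1.368 in chromatin and 0.63 to 0.876 in nucleus, so TMM would lower chromatin against nucleus. The ranks under TMM were not computed. Chromatin had the highest mean for 258 of the 373 (69.2%), nucleoplasm for 89, cytoplasm for 18 and nucleus for 8. For all 41708 transcripts that passed, chromatin was highest for 50.3%; for new isoforms of Ensembl genes it was 66.5%, and for transcripts matched to Ensembl 33.6%. The 3 chromatin libraries all lay above the other 9 for 156 members (41.8%), against 25.1% of all transcripts and 34.8% of new isoforms. The 3 nucleus libraries all lay below the other 9 for 131 members (35.1%), against 15.2% of all transcripts. The nuclear control RNAs given above were lowest in the same 3 libraries, and the part of this in the result was not tested. With each member's 4 fraction means set to sum to 100%, the median member had 43.2% in chromatin, 26.2% in nucleoplasm, 19.4% in cytoplasm and 8.92% in nucleus. The medians over all transcripts were 32.0%, 23.5%, 22.5% and 15.3% in the same order, and those over new isoforms were 42.6%, 23.3%, 18.6% and 10.9%, so the chromatin median of the members lay close to that of new isoforms.

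**Figure D3:**
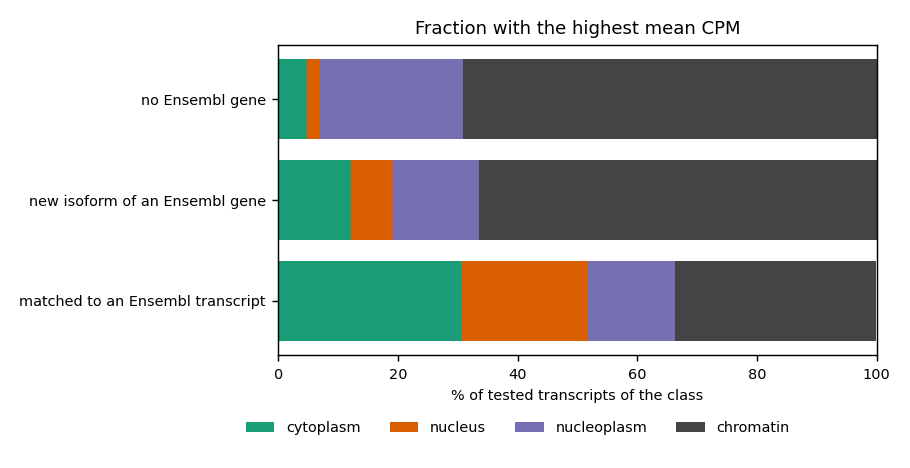
Share of the tested transcripts of each class whose mean CPM was highest in a given fraction. Chromatin is the highest fraction for 69.2% of transcripts without an Ensembl gene, 66.5% of new isoforms and 33.6% of matched transcripts.

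The members that passed also differed from other transcripts in counts per TPM, which scales with the length that the authors' TPM divides by. Scaled so that the median transcript of the table had 1, the median was 1.7 for members, 1.29 for new isoforms and 0.794 for matched transcripts. The 10 leading members ran from 0.0753 for ECT.24996.1 to 1.12 for ECT.25021.1, so 9 of them were under 0.995, the 25th percentile of the members. Per length, the median mean level was 0.438 TPM for the members, 1.01 TPM for new isoforms and 5.2 TPM for matched transcripts.

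Below the 10 leading members came 31 with a mean of 10.3 to 57.4 CPM. Chromatin had the highest mean for 25 of them, and all 3 chromatin libraries lay above the other 9 for 22, where the shares of all transcripts that passed were 50.3% and 25.1%. The exception at the top was ECT.24999.1, singled out after its values were seen: it had 490 CPM in nucleoplasm replicate 2, 67.0 and 6.71 CPM in cytoplasm replicates 1 and 3, 85.1 and 40.0 CPM in nucleus replicates 2 and 3, and 0 in the other 7 libraries. Its nucleoplasm level thus rests on 1 library. In that library the members outside the 10 summed to 1979 CPM with ECT.24999.1 included, against 1527 and 1476 CPM in the other nucleoplasm replicates. The spread of that sum in nucleoplasm thus comes largely from this transcript. It was not called, with an adjusted p of 0.158 in chromatin against nucleoplasm (edgeR).

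The libraries labelled cytoplasm were compared with those labelled nucleus, the first step of the fractionation. Of 373 members, 28 (7.51%) were higher in cytoplasm, where 7.03% of all transcripts tested were, and 4 (1.07%) were lower, where 6.62% were (edgeR quasi-likelihood test, Benjamini-Hochberg adjusted p under 0.05). The share higher was thus near that of all transcripts and the share lower was below it. Without overlap between the 2 groups, 160 members (42.9%) were higher, against 27.5% of all transcripts, and 9 (2.41%) were lower, against 7.97%. The median log2 change was 0.83 for the members and 0.13 for all transcripts.

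ECT.7730.1, numbered between 2 loci of SPINK5, a protease inhibitor gene of chromosome 5, stood at 2.59, 1.28 and 1.24 CPM in cytoplasm and at 0, 0.0470 and 0 CPM in nucleus (log2 change 5.55, SE 1.06, adjusted p 0.00691). These are 83 counts against 1, so the pooled CPM had a ratio of 74.1 with an exact 95% interval of 12.9 to 2960 for counting error. ECT.8396.1, numbered after SMN2, the second survival motor neuron gene of chromosome 5, stood at 12.2, 8.21 and 7.58 CPM in cytoplasm against 1.94, 0.0939 and 0.737 CPM in nucleus (log2 change 3.18, SE 0.70, adjusted p 0.0139). The groups did not overlap, and nucleoplasm and chromatin stood at 7.79 to 13.7 CPM. Without cytoplasm replicate 2 and chromatin replicate 2 its adjusted p was 0.0532, and from the 6 libraries compared alone it was 0.0916 (edgeR).

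ECT.24609.2 is 1 of 4 members of a locus numbered between STK26, a kinase gene, and FIRRE, a long noncoding RNA gene, both of the X chromosome. It stood at 17.7, 15.5 and 16.5 CPM in cytoplasm, 5.04, 0.657 and 2.64 CPM in nucleus, 35.4, 41.9 and 37.8 CPM in nucleoplasm and 9.78, 15.7 and 11.3 CPM in chromatin. Nucleoplasm was highest and nucleus lowest with no overlap, and the change in cytoplasm was 2.37 (SE 0.47, adjusted p 0.00851). From the 6 libraries compared alone, ECT.24609.2 had an adjusted p of 0.0707 (edgeR). Its locus as a whole, summed over the 4 members, reached 115 ± 8.36 CPM in nucleoplasm and 89.0 ± 40.2 CPM in chromatin, with 52.1 ± 7.78 CPM for cytoplasm and 11.7 ± 9.38 CPM for nucleus (SD, n = 3).

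ECT.11733.1 (2.41), ECT.16905.1 (2.44) and ECT.8894.1 (2.30) were also higher in cytoplasm by log2 changes near that size, with adjusted p-values of 0.00469, 0.00961 and 0.00352. From the 6 libraries compared alone, ECT.16905.1 kept its call (adjusted p 0.0381, edgeR). ECT.11733.1 and ECT.8894.1 lost theirs there (0.0654 and 0.0567). Each of these members kept its call in the 6 fits that left out a library. ECT.1827.1 (1.99), ECT.8417.1 (1.96), ECT.15785.1 (1.92) and ECT.6014.7 (1.82) were called at adjusted p-values of 0.0254 to 0.0413, but kept the call in only 1 to 4 of these 6 fits. These 4 stood at 0.188 to 3.49 CPM in nucleus. In the authors' TPM the 4 members called in this comparison were ECT.24609.2, ECT.8396.1, ECT.15785.1 and ECT.24996.1 (limma-trend). A further 5 members called higher with edgeR, ECT.3778.1, ECT.11767.1, ECT.2551.1, ECT.8947.1 and ECT.3231.1, chosen after their values were seen, had 0 counts in all nucleus libraries, and were at least 2.06-fold to 3.77-fold higher in cytoplasm, with the floor at 3 counts per library.

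The 4 members lower in cytoplasm were ECT.24996.1, described above, ECT.1599.1, ECT.11909.1 and ECT.11762.1. ECT.1599.1, numbered between DEDD and F11R on chromosome 1, stood at 21.1, 17.6 and 21.7 CPM in cytoplasm and 41.7, 24.3 and 42.1 CPM in nucleus. It was highest in chromatin, at 81.9, 71.4 and 80.0 CPM, above every other library, and its change in cytoplasm was -1.16 (SE 0.13, adjusted p 0.000212). In TPM this change was -0.75 (adjusted p 0.106, limma-trend). ECT.11909.1 (-1.61, adjusted p 0.0396) and ECT.11762.1 (-1.43, adjusted p 0.0309) stood at 1.96 to 3.10 CPM in nucleus and kept this call in 1 of 6 fits without a library.

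The set of 6 had log2 changes of 2.86 to 4.10 and none was called, with adjusted p-values of 0.152 to 0.276 (edgeR). Those changes rested on cytoplasm replicate 2. Without it the changes ran from -2.12 for ECT.25007.1 to 0.05 for ECT.23131.1. Over all members, 13 were called without cytoplasm replicate 2 and chromatin replicate 2, 9 higher and 4 lower, where the calls among all transcripts went from 5694 to 3690.

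**Figure D4:**
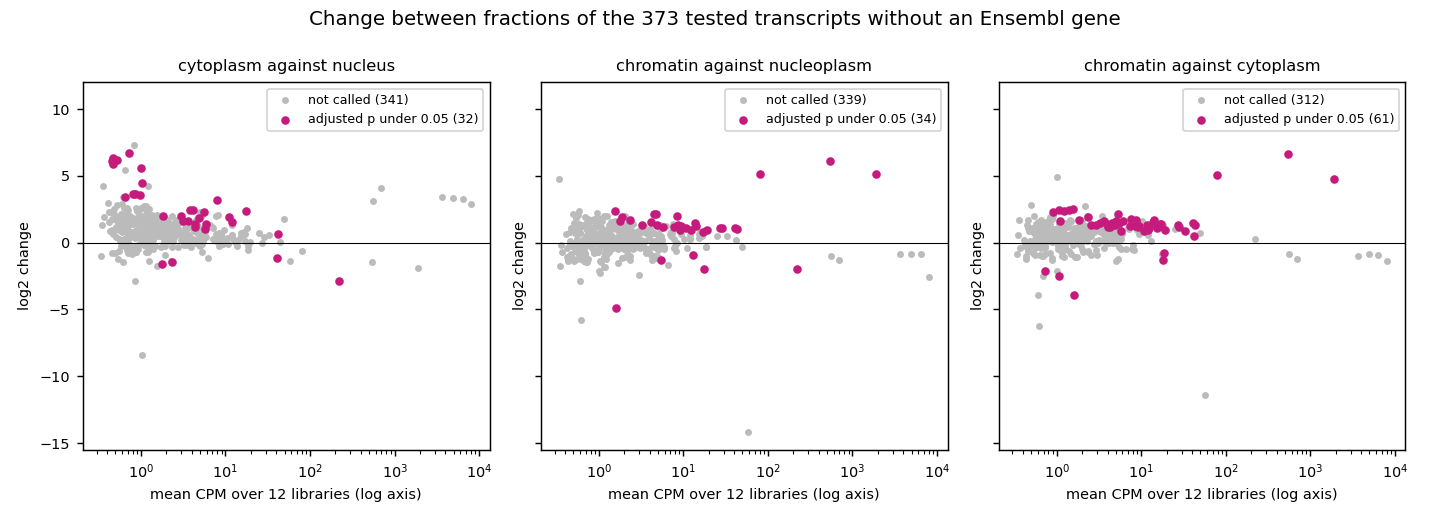
Log2 change against mean CPM (log axis) for the 373 tested transcripts without an Ensembl gene, in each comparison; colour marks an adjusted p under 0.05 (edgeR). Called members lie mostly above 0 and below 100 CPM, and the set of 3 stands apart at changes of 4.80 to 6.62 in both chromatin comparisons.

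Chromatin was compared with nucleoplasm, the second step, to ask which members stay with the chromatin pellet. Of 373 members, 29 (7.77%) were higher in chromatin, where 4.51% of all transcripts were, and 5 (1.34%) were lower, where 9.37% were. Scaled on total counts instead of TMM (edgeR's composition scaling), 39 were higher and 1 lower, and the median of all transcripts moved from -0.04 to 0.33. The median member stood at 0.25 with TMM. Without overlap, 173 members (46.4%) were higher, against 31.3%, and 25 (6.70%) lower, against 12%. Without cytoplasm replicate 2 and chromatin replicate 2, 12 were higher and 3 lower, where the calls among all transcripts went from 5789 to 2711.

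The set of 3 had the largest changes: 6.08 for ECT.25001.1 (SE 1.41, adjusted p 0.0181), 5.15 for ECT.25004.1 (SE 1.14, adjusted p 0.0148) and 5.15 for ECT.25021.1 (SE 1.01, adjusted p 0.00872). Without chromatin replicate 2 the changes were 3.16, 2.42 and 2.88, and all 3 were still called (adjusted p 0.0446, 0.0139 and 0.0047). ECT.25001.1 lost its call without any 1 nucleoplasm replicate (adjusted p up to 0.0774), and ECT.25004.1 lost it without nucleoplasm replicate 2 or 3 (0.0641 and 0.0616). ECT.25004.1 also lost it from the 6 libraries compared alone (adjusted p 0.0597, edgeR). Each of the 3, ECT.25021.1 included, had a value in only 12 of the 13 alternatives, and DESeq2 gave none for ECT.25001.1 or ECT.25004.1. For the set of 6 the changes ran from -2.54 for ECT.25017.1 (adjusted p 0.264) to -0.84, and none was called.

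ECT.1383.1 and ECT.1384.1 are numbered next to each other, between MCL1, an apoptosis regulator gene, and a snoRNA gene on chromosome 1. ECT.1384.1 stood at 20.1, 19.7 and 19.5 CPM in chromatin and at 3.68, 3.54 and 3.98 CPM in nucleoplasm (log2 change 2.02, SE 0.25, adjusted p 0.00103). ECT.1383.1 stood at 11.9, 9.25 and 10.7 CPM against 2.02, 1.65 and 1.96 CPM (2.11, SE 0.34, adjusted p 0.00342). In both, the chromatin libraries lay above the other 9, and the calls held in all 13 alternatives run for them.

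ECT.20276.1 stood at 12.2, 8.66 and 12.3 CPM in chromatin and 2.67, 0.826 and 2.14 CPM in nucleoplasm (2.14, SE 0.51, adjusted p 0.0206). It is numbered between MAPK8IP1P1 and another processed pseudogene of chromosome 17. ECT.21550.1 was higher by 2.37 (adjusted p 0.0203), ECT.19104.1, numbered before CDH3-AS1 on chromosome 16, by 1.89 (0.0176), ECT.11762.1 by 1.73 (0.0140) and ECT.11909.1 by 1.60 (0.0419). ECT.20276.1 and these 4 kept the call in 0 to 3 of the 6 fits that left out a library.

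Of the 5 members lower in chromatin, ECT.24609.2 changed by -2.01 (SE 0.46, adjusted p 0.0163) and was still called in 3 of the 6 fits with 1 library fewer, and ECT.24996.1 is given above. ECT.13191.1, numbered between ATAD1 and ANKRD1 on chromosome 10, stood at 14.7, 15.0 and 12.9 CPM in chromatin and 18.7, 24.3 and 20.3 CPM in nucleoplasm (-0.95, SE 0.19, adjusted p 0.00873). On total counts its change was -0.57 (adjusted p 0.154), and in TPM -0.07 (adjusted p 0.825). ECT.8894.1 (-1.33, adjusted p 0.0391) kept the call in 0 of 6 fits without a library. ECT.12250.2, in a locus shared with MSANTD3, had 0 counts in 2 chromatin libraries and 1.80, 6.84 and 2.20 CPM in nucleoplasm (-4.88, SE 1.34, adjusted p 0.0372), a call kept in 1 of 6 such fits.

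Chromatin was compared with cytoplasm, the ends of the fractionation. This comparison shares its libraries with the other 2, so its calls are not independent of theirs. Of 373 members, 56 (15.0%) were higher in chromatin, where 12.2% of all transcripts were, and 5 (1.34%) were lower, where 15.9% were. Without overlap, 228 members (61.1%) were higher, against 37.7%, and 11 (2.95%) lower, against 16.5%. Without TMM 84 were higher and 2 lower, and without cytoplasm replicate 2 and chromatin replicate 2, 24 and 2. The calls among all transcripts were 11694, 11508 without TMM and 7378 without these 2 libraries. The median log2 change was 0.67 for the members and 0.07 for all transcripts.

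The set of 3 again changed most, by 6.62 for ECT.25001.1 (SE 1.44, adjusted p 0.00625), 5.10 for ECT.25004.1 (SE 1.13, adjusted p 0.00682) and 4.80 for ECT.25021.1 (SE 1.00, adjusted p 0.00469). Without chromatin replicate 2 these were 3.69, 2.37 and 2.52, each called. The set of 6 had changes of -0.83 to -1.39, with none called, but all were positive without cytoplasm replicate 2, where ECT.25007.1 was called (5.02, adjusted p 0.0178). ECT.13120.1, numbered between SAMD8 and VDAC2 on chromosome 10, stood at 13.9, 10.3 and 13.9 CPM in chromatin and 2.17, 2.61 and 1.30 CPM in cytoplasm (2.17, SE 0.41, adjusted p 0.00287). Its chromatin libraries lay above the other 9, and its call held in all 13 alternatives.

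Among members at lower levels, ECT.21550.1 was higher by 2.51 (adjusted p 0.00729) and was called in all 13 alternatives. ECT.24824.1, numbered between FGF13 and EOLA2 on the X chromosome, was higher by 2.46 (0.0128), and ECT.4440.1, numbered between GOLGA4 and DLEC1 on chromosome 3, by 1.91 (0.0160). Leaving out 1 library, ECT.24824.1 kept its call in 3 of 6 fits and ECT.4440.1 in 2 of 6, and without cytoplasm replicate 2 and chromatin replicate 2 ECT.4440.1 had an adjusted p of 0.172 (edgeR). ECT.24039.1 (2.42), ECT.20057.1 (2.38) and ECT.13729.1 (2.27) had adjusted p-values of 0.0248 to 0.0473 and were still called in 0 or 1 of the 6 fits with 1 library fewer. These 3 stood at 0.140 to 0.561 CPM in cytoplasm and 1.78 to 4.14 CPM in chromatin.

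ECT.14350.1, numbered between DOC2GP and NUDT8 on chromosome 11, was lower in chromatin, at 13.8, 10.5 and 14.2 CPM against 23.6, 22.1 and 22.5 CPM in cytoplasm (-1.28, SE 0.20, adjusted p 0.000971). Nucleus stood with cytoplasm, at 22.1 to 28.7 CPM, and nucleoplasm with chromatin, at 11.9 to 12.6 CPM. Its change was -0.03 in the authors' TPM (limma-trend, adjusted p 0.896). ECT.24997.7 fell from 1.81 ± 0.305 CPM to 0.427 ± 0.151 CPM (SD, n = 3; -2.50, adjusted p 0.00403 by edgeR), while its locus of 14 members summed to 130 ± 7.75 CPM in chromatin and 53.0 ± 4.54 CPM in cytoplasm. ECT.12250.2 (-3.90, adjusted p 0.0460), ECT.11308.1 (-2.12, 0.0229) and ECT.4361.1 (-0.75, 0.0266) kept their calls in 0 or 1 of 6 fits without a library.

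**Figure D5:**
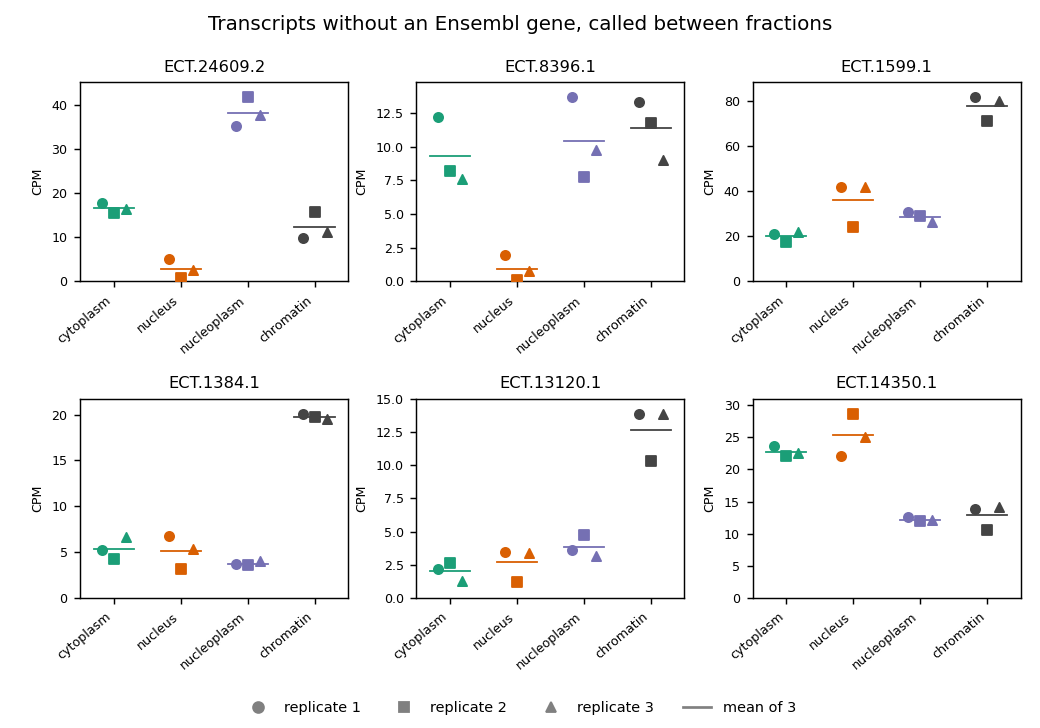
CPM by fraction of 6 transcripts without an Ensembl gene that were called in at least 1 comparison, on axes that start at 0; each marker is a library and each line the mean of 3. ECT.24609.2 is highest in nucleoplasm, ECT.1599.1, ECT.1384.1 and ECT.13120.1 in chromatin, and ECT.14350.1 in cytoplasm and nucleus.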

How the data were processed

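The authors deposited estimated counts and TPM per assembled transcript; the submitters' processing notes name STAR, RSEM and hg38, without versions. RSEM divides reads between similar transcripts by estimate, and values in the count table were already whole. Counts were used as deposited, and CPM are counts scaled to a library total of 1000000. The deposited TPM were used for shares, for levels compared between transcripts, and for an alternative test on log2(TPM + 1). All 54325 transcripts entered 1 edgeR 4.0.16 fit (R 4.3.3) over the 12 ectoderm libraries: TMM, filterByExpr with a minimum count of 10, quasi-likelihood F test, two-sided, Benjamini-Hochberg adjustment over all 41708 transcripts that passed, threshold 0.05. Each standard error (SE) is the log2 change divided by the square root of F. Library shares were compared with exact permutation tests (SciPy 1.17.1). Groups follow the sample titles; columns coded "Nei" were read as nucleus. There was 1 column that matched no sample, and it was not used.

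Named are the 10 members with the highest mean CPM, the member with the most counts in each library and, per comparison, up to 10 called rises and 10 called falls with at least 1 CPM in the higher group and no overlap. Members and lists were chosen with earlier results of these data known. No label says that replicates are separate cultures, so p-values measure the spread between these libraries, which may be technical. Of 12 replicate pairs, 0 held identical counts, and chi-squared divided by its degrees of freedom was at least 13.8. Ensembl IDs were looked up in GENCODE release 29 (GRCh38) for neighbours. Tests were checked on simulated data. Alternatives were total-count scaling, DESeq2 1.42.0, no filter, a replicate block, fewer libraries, limma-trend 3.58.1 on TPM and the combined assembly.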

Additional observations from a re-analysis of the deposited data

How the results depend on the processing

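The counts of called members depended on the test. For cytoplasm against nucleus (32 called), 7 were called from the 6 libraries compared alone, 13 without cytoplasm replicate 2 and chromatin replicate 2, 95 with DESeq2, 4 in the authors' TPM, 18 in the combined assembly and 16 with a replicate block. Calls among all transcripts moved too, from 5694 to 2892, 3690, 10798, 3545, 4303 and 4398 in that order. For chromatin against nucleoplasm (34), the same settings apart from the combined assembly and the block gave 56, 15, 89 and 194, and for chromatin against cytoplasm (61) they gave 94, 26, 118 and 261. Among all transcripts, the same settings gave 8199, 2711, 10613 and 15936 against 5789, and 14686, 7378, 16688 and 22373 against 11694. Total-count scaling gave 37, 40 and 86 members (5811, 4522 and 11508 of all transcripts), and moved the medians of all transcripts from 0.13, -0.04 and 0.07 to 0.46, 0.33 and 0.52. Fits that left out 1 library gave 13 to 58, 14 to 23 and 30 to 43 members. Among all transcripts these fits gave 3331 to 6837, 3216 to 3711 and 8994 to 9378. The 58 came without nucleus replicate 1, where 6837 of all transcripts were called. The replicate block gave 23 and 52 in the last 2 comparisons, with 4583 and 10509 of all transcripts. Same-number correlations of deviations ran from -0.030 to 0.035, and those between different numbers from -0.053 to 0.037. As counting error also lowers such correlations, they cannot show whether libraries of the same number share a preparation. The combined assembly and the exclusion of the 2 libraries together were added after seeing the data.

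Shares moved by more than 1 SD for nucleus in TPM (0.606%) and without the 10 leading members (0.0658%), and for nucleoplasm in TPM (6.85%), without ECT.25017.1 (2.63%) and without the 10 (0.166%). Leaving out 1 library gave 0.412% to 4.61% in cytoplasm, 0.372% to 0.507% in nucleus, 3.73% to 5.26% in nucleoplasm and 1.2% to 4.33% in chromatin.

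Of the values of named members under an alternative, 29 of 849 changed sign, and ECT.4361.1 (0.45 in TPM, chromatin against cytoplasm) was the one outside the set of 6. In chromatin against cytoplasm, leaving out 1 library gave -2.56 to 2.33 for ECT.23131.1, -2.48 to 5.02 for ECT.25007.1, -2.80 to 2.40 for ECT.25017.1, -2.57 to 2.65 for ECT.25020.1, -2.33 to 3.42 for ECT.25023.1 and -2.64 to 2.80 for ECT.25024.1, lowest without chromatin replicate 2 and highest without cytoplasm replicate 2. In the same order, the values without both were 0.78, 3.76, 0.95, 0.99, 1.89 and 0.97, and in TPM 1.55, 3.16, 1.35, 1.79, 3.21 and 1.72. In cytoplasm against nucleus, leaving out 1 library gave -2.12 to 4.88 for ECT.25007.1, -0.89 to 3.42 for ECT.25017.1, -0.28 to 3.83 for ECT.25020.1, -1.04 to 3.84 for ECT.25023.1 and -0.25 to 3.92 for ECT.25024.1, lowest without cytoplasm replicate 2. Without both, these 5 were at -2.14, -0.90, -0.30, -1.07 and -0.27. Beyond the libraries left out, the cause was not tested.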
